A study of Mus musculus with 12 samples.

Results

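At day 2 after a pulse that activates Cre in embryonic stem cells built to lose Hdac1 and Hdac2, more genes were higher than lower relative to day 0 (1473 against 755 of those tested), an order that turned to 1185 against 1357 after scaling to the 75th percentile. The comparison set the 3 arrays of day 2 against the 3 arrays of day 0, which are 6 of the 12 arrays of the series, and covered all 9934 genes that passed the detection filter. The line is E14, a mouse embryonic stem cell line. Its Hdac1 and Hdac2 genes are flanked by loxP sites on both alleles, and it makes CreER, a recombinase that stays inactive until 4-hydroxytamoxifen (OHT) binds it. The cells were grown without feeders on gelatin in serum with LIF, and OHT was given for 16 hours to start the deletion. The day 2 cells are therefore labelled as knockout cells, Hdac1lox/lox, Hdac2lox/lox with CreER after OHT, and the day 0 cells carry the same alleles. The titles of the day 0 arrays also read "+OHT", while the series design names day 0 wild type, so whether day 0 cells met OHT is not settled. Neither untreated cells cultured as long nor OHT-treated cells lacking loxP sites are among the samples, so time in culture and OHT itself cannot be told apart from the deletion. Nothing in the labels makes the 3 arrays of a day separate cultures, so the p-values reflect the spread between these arrays, which may be technical.

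HDAC1 and HDAC2 are closely related enzymes that remove acetyl groups from the lysines of histone tails and other proteins. They work as the catalytic core of the NuRD, Sin3, CoREST and MiDAC complexes, which DNA-binding repressors recruit to genes, and each enzyme can largely stand in for the other. Embryonic stem cells that lose both are known to lose viability. In a bulk sample such as this, fewer cells of a type and less RNA per cell cannot be told apart.

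All values below are intensities after background correction and quantile normalization on the log2 scale, where a difference of 1 is a 2-fold change. A gene is said to have risen or fallen where limma's adjusted p (Benjamini-Hochberg) was under 0.05, and errors of changes are standard errors. Between 15981 and 16770 probes were detected on the day 2 arrays, against 14977 to 15830 on the day 0 arrays. Before scaling, the upper quartile of the intensity was 324.2, 375.7 and 382.2 on the day 2 arrays, against 314.6, 274.1 and 357.6 on the day 0 arrays, so the day 2 arrays were on the whole brighter. Correlations across genes, which are not independent replicates, were 0.9901 to 0.9935 between day 2 arrays, 0.9873 to 0.9901 between day 0 arrays and 0.9718 to 0.9795 between the days. All 10 embryonic stem cell markers checked were detected at both days, with a summed linear level of 132000 to 136000 at day 2, against 138000 to 142000 at day 0. Of 17 fibroblast or feeder markers, 9 were detected on none of these arrays, among them Col1a2, Col3a1, Dcn and Postn. The summed level of that list was 3570 to 3910 at day 2, against 2110 to 2440 at day 0.

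The arrays hold no probe named Hdac1. The brighter of the 2 Hdac2 probes, which represents the gene here, was at 13.60, 13.68 and 13.71 at day 2, against 13.70, 13.40 and 13.65 at day 0. This difference of 0.08 ± 0.14 did not pass (limma adjusted p of 0.716). The dimmer probe was at 5.92, 5.70 and 5.96 at day 2, near the detection limit, against 6.57, 6.36 and 6.47 at day 0, a difference of -0.60 ± 0.21 that did not pass in the fit over all probes (limma adjusted p of 0.0679). Whether either probe lies in the deleted part is not given in the sources used here, so the arrays do not check the deletion itself.

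Of the 9934 genes, 2228 (22.4%) had changed at day 2, of which 1473 (14.8% of those tested) had risen and 755 (7.6%) had fallen. The changes were mostly small. Over all called genes, with those undetected on 1 of the days included, the median change was 0.72 among rises and -0.59 among falls. Where both days were detected, 221 rises and 42 falls were over 2-fold. Another 223 rises were detected on at least 1 day 2 array and on no day 0 array, and for 176 of those all 3 day 2 arrays were detected. The reverse, a fall to no detected signal at day 2, was called for 21 genes. Genes undetected on 1 of these days entered the test only through signal on other days, so both counts are partly set by the detection filter. Among the genes tested, 247 were undetected at day 0 and detected on all 3 day 2 arrays, against 15 the other way. The day 2 arrays also detected more probes, as given above. All 3 day 2 arrays lay above all 3 day 0 arrays for 22.8% of the genes tested, and below them for 16.1%, and 28 calls had overlapping groups. Without day 0 replicate 2, day 2 replicate 2 or day 2 replicate 3 the falls numbered 499, 490 and 474. Scaling moved the split between rises and falls. With scaling to the 75th percentile 46.6% of 2542 calls were rises, and with no scaling 97.7% of 1023 calls were, against 66.1% with quantile normalization. With no scaling the median of all genes was 0.27 instead of 0.03, so every change below is relative to the other genes.

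**Figure D1:**
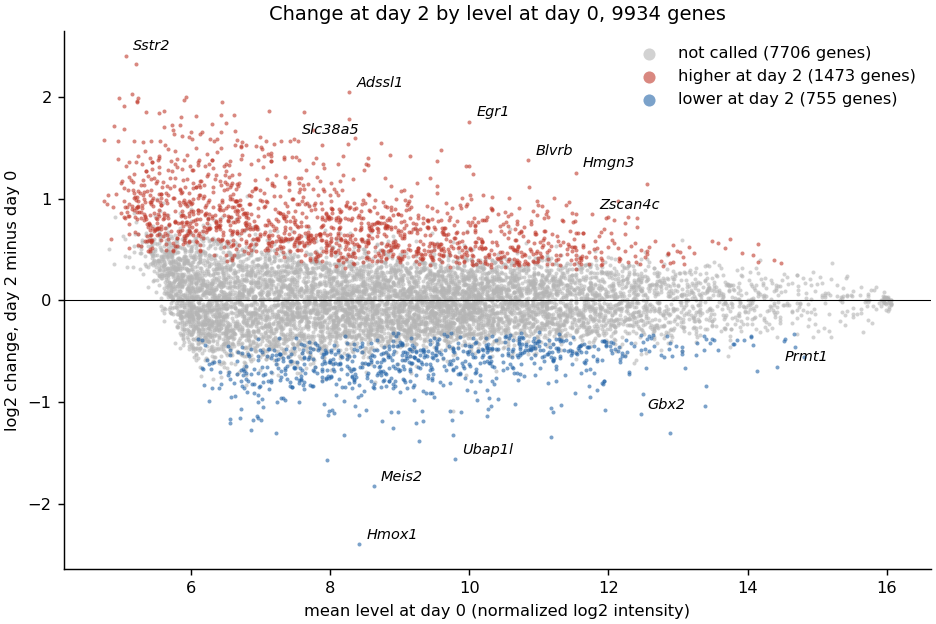
Each point is 1 of 9934 genes, with its mean normalized log2 intensity at day 0 on the horizontal axis and the log2 change, day 2 minus day 0, on the vertical axis. The 1473 called rises (red) reach 2.05 for Adssl1 among genes detected at both days, while the 755 called falls (blue) reach -2.40 for Hmox1.

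The 12 largest measured rises came from genes of many kinds. Adssl1, which encodes the muscle form of adenylosuccinate synthase in purine metabolism, was at 10.46, 10.38 and 10.16 at day 2, against 8.09, 8.44 and 8.32 at day 0. This rise of 2.05 ± 0.13, or 4.14-fold, had a limma adjusted p of 6.28e-06. Mlycd, the decarboxylase that removes malonyl-CoA and so relieves a brake on fatty acid oxidation, was at 7.69, 8.07 and 8.04 at day 2, against 5.76, 5.40 and 6.64 at day 0. It was detected on only 1 of the 3 day 0 arrays, and its rise was 2.00 ± 0.34. Gch1, the enzyme that starts tetrahydrobiopterin synthesis, was at 10.06, 10.11 and 10.03 at day 2, against 7.89, 8.47 and 8.48 at day 0 (a rise of 1.79 ± 0.15, limma adjusted p of 1.94e-05). The muscle gene Myl2, a regulatory myosin light chain, was at 9.60, 9.49 and 9.35 at day 2, against 7.41, 7.69 and 7.75 at day 0. Pygl, which releases glucose units from glycogen in liver, had 8.03, 8.48 and 8.26 at day 2, against 6.26, 6.49 and 6.52 at day 0. Among the 12 were also Tmem53, Ttc9b, Snorc, Nccrp1, the lysosomal protease gene Ctsh, Mfsd6 and Egr1, with rises between 1.76 and 1.97. Each of the 12 kept its call in all 28 alternatives, but the sizes moved, for Mlycd between 0.85 and 2.34.

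**Figure D2:**
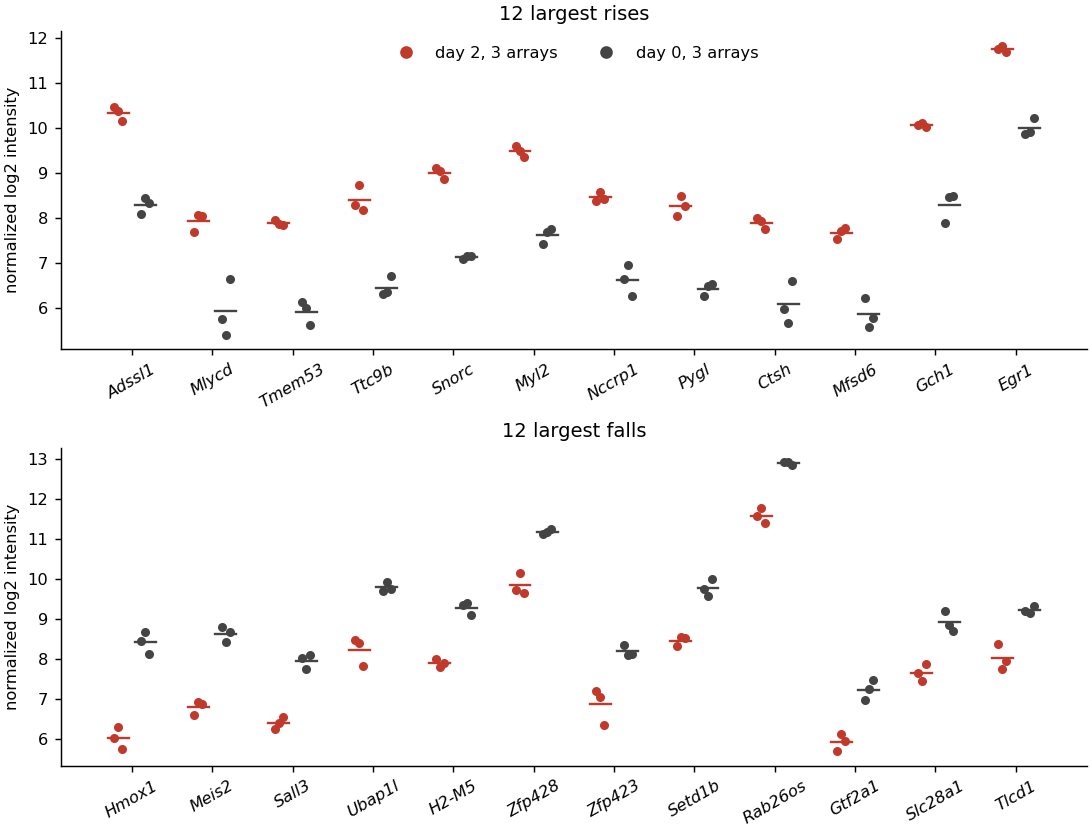
Normalized log2 intensity of the 12 largest measured rises (top) and the 12 largest measured falls (bottom) on each array, with day 2 in red to the left of day 0 in dark grey and a bar at each mean. The 24 genes were picked from calls whose groups do not overlap, so the lack of overlap is set by that choice.

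Another 6 genes rose from no detected signal and had the highest lower bounds among such genes. Nrip3 was at 7.39, 7.57 and 7.69 at day 2 and undetected on all 3 day 0 arrays, a rise of at least 2.67-fold with a limma adjusted p of 2.38e-05. Sstr2, a receptor for the inhibitory peptide somatostatin, was at 7.32, 7.32 and 7.81 at day 2, at least 2.55-fold above the day 0 detection limit. The bounds of the others were 2.56-fold for Dmrtc2 and for Fam181b, 2.45-fold for Ptges, which makes prostaglandin E, and 2.39-fold for Fbln2, an extracellular matrix protein.

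Hmox1 fell furthest. It encodes the inducible heme oxygenase, which breaks heme down to biliverdin, and was at 6.03, 6.29 and 5.76 at day 2, against 8.46, 8.68 and 8.13 at day 0. The fall of -2.40 ± 0.23 had a limma adjusted p of 4.5e-05, and 1 of the 3 day 2 arrays no longer detected it. Next came developmental transcription factors. Meis2, a homeodomain factor, was at 6.61, 6.92 and 6.87 at day 2, against 8.79, 8.42 and 8.68 at day 0 (-1.83 ± 0.20, limma adjusted p of 7.4e-05). Sall3, a zinc finger factor of the spalt family, was at 6.25, 6.4 and 6.54 at day 2, against 8.03, 7.76 and 8.09 at day 0 (-1.57 ± 0.21). The zinc finger genes Zfp428 (-1.34) and Zfp423 (-1.32) also fell, as did Ubap1l (-1.56), the non-classical MHC class I gene H2-M5 (-1.38), the antisense RNA gene Rab26os (-1.30), the nucleoside transporter gene Slc28a1 (-1.26) and Tlcd1 (-1.21). Gtf2a1, the large subunit of the general factor TFIIA, was at 5.70, 6.13 and 5.96 at day 2, against 6.98, 7.24 and 7.47 at day 0 (-1.30 ± 0.20, limma adjusted p of 0.000763). Day 2 replicate 1 did not detect Gtf2a1 (lowest detected signal of 6.03), and its change was -1.45 to -0.49 over the 28 alternatives. Setd1b, a histone methyltransferase, was at 8.32, 8.54 and 8.52 at day 2, against 9.76, 9.58 and 9.99 at day 0, and was the only one of these 12 whose call was lost in any alternative, which was the fit with no scaling. A further 6 genes fell to no detected signal at day 2, and the highest bound was that of Lrrc29, at least 2.02-fold lower. Neurog3, a factor that directs endocrine cell fate in the pancreas, was undetected at day 2, with 5.53, 5.59 and 5.86, against a detected 6.54, 7.0 and 6.63 at day 0, and was at least 1.73-fold lower. Of the genes named here, 69 of the 84 falls and 36 of the 124 rises were not called with no scaling, under which the median over all genes is 0.27.

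Chromatin genes changed in both directions. All gene lists from here on were chosen with earlier results of these data known. Their shares beside the background (the share over all genes tested) describe the lists and are not tests. Of the 8 zinc-dependent deacetylase genes tested, 1 rose (12.5%, background 14.8%) and 0 fell. The median change was 0.16, or 0.04 with 2 bound-only members set to their bound. The riser was Hdac5, a class IIa enzyme, at 10.53, 10.28 and 10.45 at day 2, against 9.83, 9.74 and 9.83 at day 0 (0.62 ± 0.11, limma adjusted p of 0.00145), a call that was lost with no scaling and with the mean of its detected probes. Among 26 subunits of the complexes that HDAC1 and HDAC2 belong to, 1 rose and 3 fell, which is 3.85% and 11.5%, against a background of 14.8% and 7.6%. Leaving out day 0 replicate 1 or 2 left 1 fall, and leaving out day 2 replicate 1 or 3 left 0. Chd4, the remodelling ATPase of NuRD (0.22), Sin3a, the scaffold of its complex (0.19), and the CoREST gene Rcor1 (0.31) did not pass, and Chd4 and Rcor1 each have another detected probe of opposite sign. Rcor2, another CoREST gene, was at 7.72, 7.90 and 7.78 at day 2, against 8.18, 8.69 and 8.73 at day 0 and fell (-0.73 ± 0.21, limma adjusted p of 0.0225). Leaving out replicate 2 or 3 of day 0, or replicate 1 or 3 of day 2, ended this call. Of the 13 acetyltransferase genes, which encode the opposing activity, 0 rose and 3 fell (23.1%, background 7.6%), with a median of -0.24. The falls were Kat5 (-0.78 ± 0.16), Kat7 (-0.71 ± 0.17) and Kat2a (-0.49 ± 0.12). The last of these lost its call without day 0 replicate 1 or without day 2 replicate 2. Ep300, a major acetyltransferase at enhancers, was at 9.17, 9.19 and 9.47 at day 2, against 9.95, 9.59 and 9.56 at day 0, with an adjusted p of 0.116 in limma's fit.

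Histone methyltransferase and demethylase genes mostly were lower where they were called. Of 27 tested, 1 rose and 7 fell, that is 25.9% against a background of 7.6%, and the median was -0.23. With no scaling between arrays none of the 7 was called, while the median relative to all genes was -0.25. Nsd1 was at 6.84, 6.98 and 7.01 at day 2, against 7.94, 8.11 and 8.11 at day 0 (-1.11 ± 0.13, limma adjusted p of 0.000123). Setdb1, which silences retroviral elements, fell by 0.66, and Prmt1, the main arginine methyltransferase, fell by 0.65. Kdm4a, a demethylase, was undetected at day 2, against 3 detected day 0 arrays, and was at least 1.39-fold lower. Of the 24 bromodomain readers and SWI/SNF subunits 2 rose (8.33%) and 1 fell (4.17%), both below the background of 14.8% and 7.6%. Fits without any single array gave 1 to 2 rises and 0 to 3 falls. Smarca2, the alternative ATPase of the SWI/SNF remodeller, was at 8.29, 8.19 and 8.20 at day 2, against 7.41, 7.23 and 6.95 at day 0 (1.03 ± 0.13, limma adjusted p of 0.000151). Another detected probe of Smarca2 had the opposite sign, and with the mean of its probes the change was no longer called. Of 25 Polycomb subunits 3 rose (12%) and 1 fell (4%), also below the background. Phc2 (0.76 ± 0.14) and the corepressor gene Bcor (-0.82 ± 0.17) moved furthest. There were 3 falls with day 0 replicate 3 left out, and leaving out 1 array of day 2 (replicate 1) or day 3 (replicate 3) gave 2. Hmgn3, a nucleosome-binding protein, was at 12.78, 12.88 and 12.70 at day 2, against 11.41, 11.53 and 11.64 at day 0. That rise of 1.26 ± 0.10 (limma adjusted p of 1.9e-05) was the only call among 6 HMG genes tested, a share of 16.7% near the background of 14.8%.

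Of 22 general transcription factor genes 2 rose (9.09%) and 5 fell (22.7%), against a background of 14.8% and 7.6%. The 2 rises, Taf7l and Taf9b, are paralogues of the TFIID subunit genes Taf7 and Taf9, and Taf7l is best known from the germline. Among the falls, beside Gtf2a1, were Taf15 (-0.95 ± 0.12, at 8.48, 8.67 and 8.48 at day 2, against 9.51, 9.54 and 9.44 at day 0) and the TFIIH subunit gene Gtf2h4 (-0.52 ± 0.12). Tbp, the TATA-binding protein itself, fell by 0.40 and lost its call without day 0 replicate 1, day 0 replicate 2 or day 2 replicate 3. Leaving out day 0 replicate 1 or day 0 replicate 2 left 3 falls.

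Histone genes themselves were a list with many rises. Of 57 tested, 28 rose (49.1%, against a background of 14.8%) and 1 fell, and the median was 0.48, against 0.03 over all genes. Histone genes are compact, lie in clusters and are near-identical to each other, so probes may share signal between copies and the members are not independent. The count of rises was 18 without day 0 replicate 1, 15 after scaling to the 75th percentile and 12 with no scaling, while the median relative to all genes was 0.44 to 0.45 under the other scalings and 0.33 in the authors' deposited values. H1f1 and H1f2 encode linker histones, which bind the DNA between nucleosomes. The H1f2 gene was at 10.91, 11.03 and 10.84 at day 2, against 10.04, 9.87 and 9.99 at day 0 (0.95 ± 0.13, limma adjusted p of 0.000278). H1f1 was at 7.29, 7.32 and 7.41 at day 2, against 6.32, 6.13 and 6.83 at day 0 (0.92 ± 0.15). Day 0 replicate 2 did not detect H1f1 (lowest detected signal of 6.25). The largest measured rise of a core histone gene was that of H2bc4, at 10.39, 10.84 and 10.76 at day 2, against 9.14, 9.66 and 9.79 at day 0 (1.13 ± 0.17). H2bfm, a variant gene, was undetected at day 0 and at least 2.05-fold higher at day 2. The 1 fall was the variant gene H2aj (-0.54 ± 0.14), lost without day 0 replicate 1, day 0 replicate 2 or day 2 replicate 3.

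The promoters of the 2 linker histone genes are shown for the CCAAT box, which both windows hold, and for TATAAA, which of the pair only the H1f1 window holds (either strand, in capitals). Each window runs 5′ to 3′ along the gene from 250 bases before to 50 bases after the RefSeq start, in GRCm38.p6, at chr13:23763418-23763717 for H1f1 and chr13:23738557-23738856 for H1f2, both on the plus strand.
H1f1: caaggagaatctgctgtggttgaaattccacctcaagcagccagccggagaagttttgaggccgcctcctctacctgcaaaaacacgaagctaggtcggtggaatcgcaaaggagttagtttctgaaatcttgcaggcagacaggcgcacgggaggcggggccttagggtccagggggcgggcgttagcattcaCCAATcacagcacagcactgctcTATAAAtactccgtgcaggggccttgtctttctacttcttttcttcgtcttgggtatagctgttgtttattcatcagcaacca
H1f2: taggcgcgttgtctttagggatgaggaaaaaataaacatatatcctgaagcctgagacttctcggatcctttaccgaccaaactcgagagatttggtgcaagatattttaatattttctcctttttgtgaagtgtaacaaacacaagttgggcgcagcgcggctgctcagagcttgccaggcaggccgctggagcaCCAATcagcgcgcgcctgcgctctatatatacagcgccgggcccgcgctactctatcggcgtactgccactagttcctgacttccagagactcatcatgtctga
In H1f1 the CCAAT begins at -56 and the TATAAA at -33 relative to the start, and in H1f2 the CCAAT begins at -54. Of the 51 histone genes with a window, 80.4% held CCAAT and 49% held TATAAA, against 39.2% and 7.54% of the 8068 tested genes with a window. Among the histone genes that rose, 66.7% held CCAAT and 54.2% held TATAAA.

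Transcripts of the germline and of the earliest embryo were another group with many rises. Germline genes are kept silent in somatic and most stem cells by several repressors, some of which recruit deacetylases. Of 34 germline and meiosis genes tested, 15 rose (44.1%, background 14.8%) and 2 fell, with a median of 0.35. Because the members were chosen with earlier results of these data known, this share is a description and not a test. Between 12 and 15 of them rose in fits that left out any single array. Taf7l was at 10.34, 10.35 and 10.17 at day 2, against 8.61, 9.13 and 8.84 at day 0 (1.43 ± 0.15, limma adjusted p of 6.92e-05). Taf9b is in this list and among the general transcription factors, and is not known as a gene of the germline alone. Its levels were 9.46, 9.35 and 9.44 at day 2, against 7.71, 7.91 and 8.04 at day 0 (1.53 ± 0.12, limma adjusted p of 1.5e-05). Tex19.2, which helps control transposons in germ cells, was at 10.31, 10.31 and 10.25 at day 2, against 9.02, 8.48 and 8.71 at day 0 (1.55 ± 0.14). Tex101, a testis surface glycoprotein gene, was at 7.07, 7.15 and 7.5 at day 2 and undetected on all 3 day 0 arrays, a rise of at least 2.15-fold. Members that did not rise included well known ones. Dazl (0.09 ± 0.11) and Ddx4 (-0.30 ± 0.20), RNA-binding proteins of germ cells, did not pass. Asz1, which works in the piRNA pathway, was at 7.25, 6.76 and 6.69 at day 2, against 7.79, 7.64 and 7.80 at day 0 and fell (-0.84 ± 0.15).

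Promoters of Taf7l and Taf9b are shown because both hold the E-box CACGTG (capitals), a sequence that MAX and its partners are known to bind. The windows lie on the minus strand of the X chromosome, at chrX:134476441-134476740 and chrX:106221109-106221408, written 5′ to 3′ along the gene.
Taf7l: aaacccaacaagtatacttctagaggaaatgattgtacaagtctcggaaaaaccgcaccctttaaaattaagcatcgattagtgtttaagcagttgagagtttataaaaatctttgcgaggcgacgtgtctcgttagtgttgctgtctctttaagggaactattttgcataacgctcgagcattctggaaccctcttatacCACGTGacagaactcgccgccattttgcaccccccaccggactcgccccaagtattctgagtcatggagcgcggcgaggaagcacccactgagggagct
Taf9b: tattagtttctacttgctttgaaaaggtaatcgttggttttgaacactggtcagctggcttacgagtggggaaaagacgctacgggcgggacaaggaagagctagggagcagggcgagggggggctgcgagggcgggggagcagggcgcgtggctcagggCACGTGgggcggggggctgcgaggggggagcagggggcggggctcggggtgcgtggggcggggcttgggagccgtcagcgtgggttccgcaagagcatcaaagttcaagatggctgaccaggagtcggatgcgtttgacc
Of the 30 germline genes with a window, 10 held CACGTG (33.3%), against 10.4% of the tested genes with a window and 7.24% of the 27025 genes of the promoter table. Among the 13 that rose and had a window, 7 held it, and no test was made of this. Dmrtc2 and Tex101, which rose from no detected signal, do not hold it in these windows.

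Of 9 genes marking the 2-cell stage, 6 rose (66.7%, background 14.8%) and 0 fell, with a median of 0.59, and with no scaling 3 rose. In cultures of embryonic stem cells these genes are known to be active in a small and changing fraction of cells. Zscan4c, a marker of that state, was at 12.53, 12.61 and 12.72 at day 2, against 11.67, 11.94 and 11.70 at day 0 (0.85 ± 0.15, limma adjusted p of 0.00181). Tcstv1 was at 10.45, 10.65 and 10.44 at day 2, against 9.47, 9.92 and 9.94 at day 0 (0.74 ± 0.14). These families have near-identical copies, so the probe may read more than the named gene. Neuronal genes known as targets of REST, a repressor that uses HDAC-containing complexes outside neurons, also gave many rises. Of 25 tested, 11 rose (44%, background 14.8%) and 0 fell, with a median of 0.42, and 11 rose under each scaling. Elavl3, a neuronal RNA-binding protein, was at 8.52, 8.60 and 8.82 at day 2, against 7.33, 7.02 and 6.90 at day 0 (1.57 ± 0.13, limma adjusted p of 1.9e-05). Camk2n2, an inhibitor of a calcium-dependent kinase, was at 9.19, 8.90 and 9.23 at day 2, against 7.49, 7.18 and 7.95 at day 0 (1.57 ± 0.19). Ttc9b (1.95), the neuropeptide gene Gal (1.61) and Sstr2 also belong to this list. Syp, a synaptic vesicle protein, and Stmn3 did not pass, with changes of 0.27 and 0.11. Of 6 general neuronal markers, Tubb3, Snap25 and Nefl were undetected at both days.

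**Figure D3:**
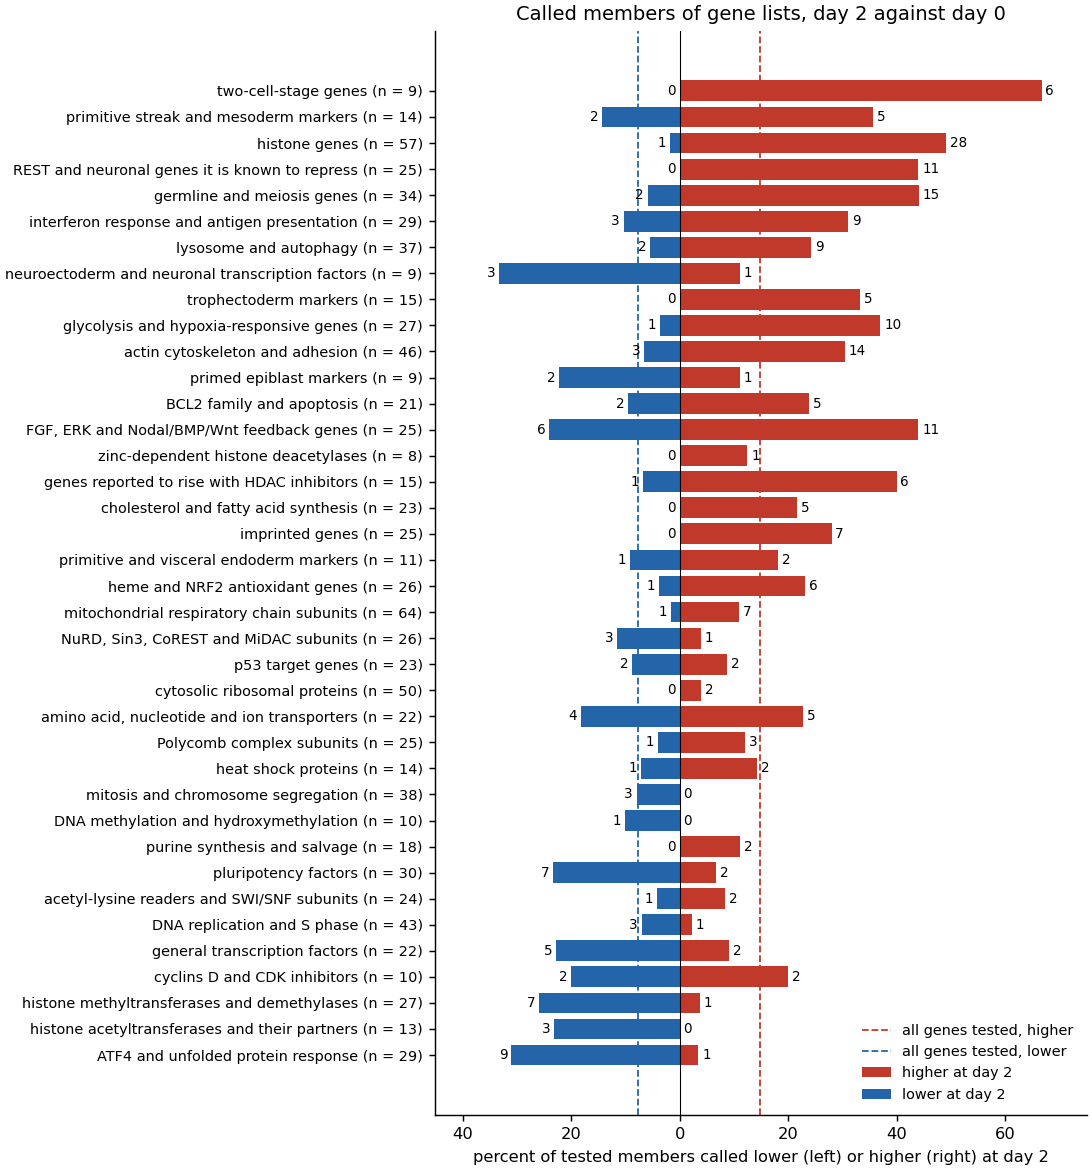
Percent of tested members called higher (red, right) or lower (blue, left) at day 2 than at day 0 in gene lists with at least 8 tested members, with the number called at each bar and the lists ordered by median change. The lists were chosen with earlier results of these data known. Dashed lines mark the share over all 9934 genes, 14.8% higher and 7.6% lower; the lists with the longest red bars are the 2-cell-stage genes, histone genes, germline genes, REST targets and signalling feedback genes, and ATF4 targets have one of the longest blue bars.

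Of 30 pluripotency factors tested, 2 rose (6.67%) and 7 fell (23.3%), against a background of 14.8% and 7.6%, with a median of -0.09. Nanog was at 13.64, 14.22 and 14.18 at day 2, against 14.13, 13.95 and 13.96 at day 0 (0.00 ± 0.18), and Esrrb and Zfp42 did not pass either. Klf4 did not pass (0.40 ± 0.20), but without day 2 replicate 1 its change was 0.69 and called (limma adjusted p of 0.00237), and another detected Klf4 probe had the opposite sign. The core factors Pou5f1 and Sox2 were slightly lower. Pou5f1 was at 13.09, 13.08 and 13.09 at day 2, against 13.78, 13.57 and 13.37 at day 0 (-0.49 ± 0.15, limma adjusted p of 0.0318). Sox2 was at 9.73, 9.45 and 9.57 at day 2, against 10.25, 9.99 and 9.86 at day 0 (-0.45 ± 0.14, limma adjusted p of 0.0415). Neither call was stable. Without day 0 replicate 1 the change was -0.38 for Pou5f1 and -0.34 for Sox2, and limma's adjusted p was 0.119 and 0.151. Both calls were also lost without day 0 replicate 2, day 2 replicate 2 or day 2 replicate 3, that of Pou5f1 without day 2 replicate 1, and that of Sox2 without day 1 replicate 3 or day 3 replicate 1. The clearer falls were in other members. Gbx2, a homeobox gene downstream of LIF, was at 11.39, 11.34 and 11.28 at day 2, against 12.44, 12.32 and 12.61 at day 0 (-1.12 ± 0.11, limma adjusted p of 4.5e-05), and Gdf3, a TGF-beta family ligand, was at 10.12, 10.17 and 10.07 at day 2, against 11.17, 11.08 and 11.29 at day 0 (-1.06 ± 0.11). Prdm14, which guards the naive state, was at 7.96, 7.64 and 7.71 at day 2, against 8.86, 8.52 and 8.52 at day 0 (-0.86 ± 0.15). The 7 falls were 3 without day 0 replicate 1, 4 without day 2 replicate 2, 11 after scaling to the 75th percentile and 1 with no scaling.

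Signalling genes moved both ways. Of 25 feedback genes of the FGF, ERK, Nodal, BMP and Wnt pathways, 11 rose (44%) and 6 fell (24%), with a median of 0.17, or 0.03 with bounds. The background was 14.8% and 7.6%. With no scaling 8 rose and 0 fell. Immediate-early genes, which growth factor signals switch on within minutes, were among the rises. Egr1 was at 11.75, 11.83 and 11.70 at day 2, against 9.87, 9.91 and 10.23 at day 0 (1.76 ± 0.12, limma adjusted p of 6.82e-06), and Fos was at 8.80, 8.99 and 8.81 at day 2, against 7.62, 6.94 and 7.33 at day 0 (1.57 ± 0.17). Lower in the same pathway were the ligand gene Fgf17 (-0.96 ± 0.14) and the ERK-dependent factor Etv5, at 10.82, 10.37 and 10.70 at day 2, against 11.60, 11.34 and 11.17 at day 0 (-0.73 ± 0.14). Fgf4, the main FGF that these cells make, was at 7.60, 7.39 and 7.64 at day 2, against 8.71, 8.15 and 8.17 at day 0 (-0.80 ± 0.21), and its call was lost without day 0 replicate 1 or without day 2 replicate 2. Feedback genes of another ligand family rose. Lefty1, a secreted antagonist, averaged 10.09 ± 0.12 at day 2, against 9.12 ± 0.02 at day 0 (SD, n = 3 each), with no overlap (0.96 ± 0.13), and Lefty2 was at 9.07, 9.06 and 8.88 at day 2, against 8.13, 7.75 and 7.83 at day 0 (1.10 ± 0.17). Id1, a BMP target that blocks bHLH factors, was at 12.24, 12.37 and 12.38 at day 2, against 11.41, 11.44 and 11.32 at day 0 (0.94 ± 0.10, limma adjusted p of 7.4e-05). The Wnt effector gene Lef1 fell (-1.0 ± 0.16) and was detected on 1 of 3 day 2 arrays.

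Several of these rises were highest at day 2 in the course. Stc1, a secreted glycoprotein gene known to respond to low oxygen, was at 7.26, 7.15 and 7.14 at day 2 and undetected at day 0, at least 2.07-fold higher, with means of 5.82 at day 1 and 5.49 at day 3. Egln3, the oxygen sensor that marks HIF for degradation, was at 9.44, 9.54 and 9.83 at day 2, against 8.53, 8.69 and 8.47 at day 0, and averaged 8.53 ± 0.34 (SD, n = 3) at day 3. Lefty1 averaged 8.64 ± 0.23 (SD, n = 3) and Lefty2 8.08 ± 0.36 (SD, n = 3) at day 3, so all 3 day 3 arrays of each gene lay below its 3 day 2 arrays. Egr1 had 11.02, 11.04 and 11.17 at day 3, and H1f2 had 10.29, 10.62 and 10.35, also below day 2. The day 3 arrays enter here as a description and the step after day 2 was not tested. Other genes went on in the same direction, such as Amn with a day 3 mean of 10.67 and Chac1 with 10.01.

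**Figure D4:**
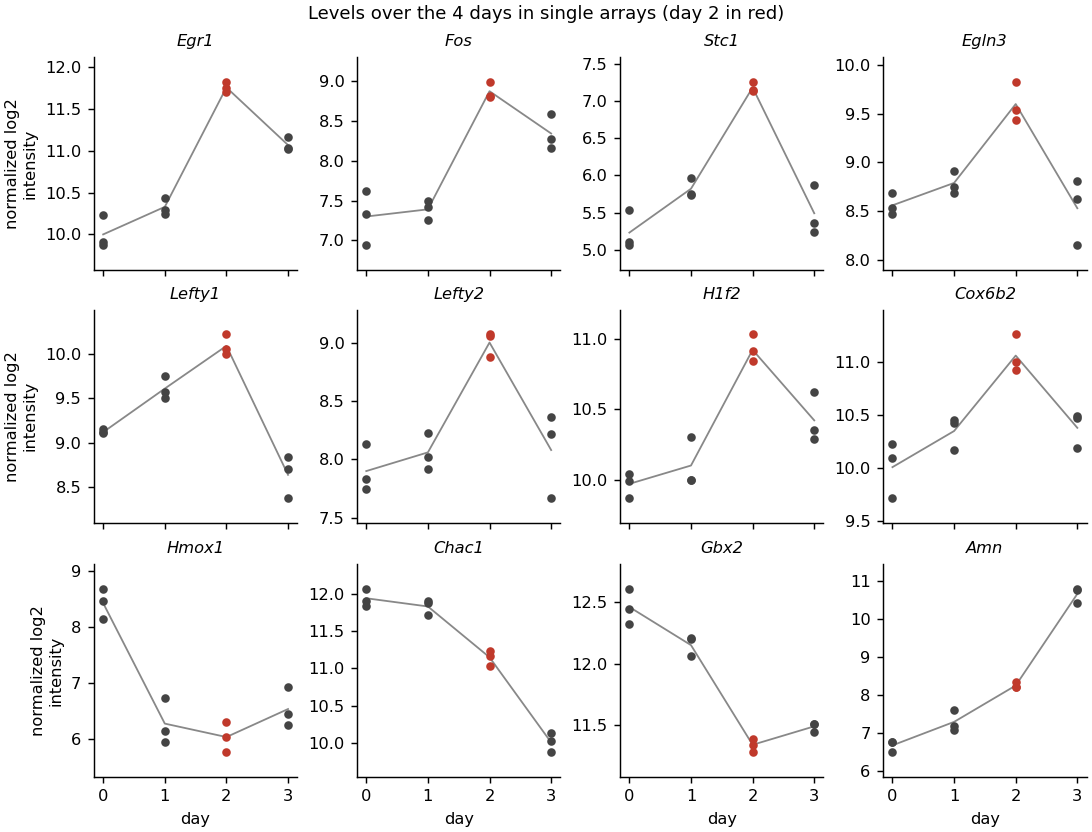
Normalized log2 intensity of 12 genes on each array of days 0 to 3, with a line through the means and day 2 in red. Egr1, Fos, Stc1, Egln3, Lefty1, Lefty2, H1f2 and Cox6b2 stand highest at day 2, Hmox1 is low from day 1 on, and Chac1 and Amn move furthest at day 3.

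Markers of other lineages moved as single genes. Of 15 trophectoderm markers 5 rose (33.3%, background 14.8%) and 0 fell, with a median of 0.24, or 0.10 with bounds. Those that rose were keratin genes, which also mark simple epithelium in general, and the factor genes Tfap2c and Id2. Krt19 was at 8.92, 8.88 and 8.44 at day 2, against 7.28, 7.57 and 7.76 at day 0 (1.21 ± 0.17, limma adjusted p of 0.000365), and Tfap2c was at 13.08, 13.05 and 13.18 at day 2, against 12.33, 12.19 and 12.31 at day 0 (0.82 ± 0.11). Cdx2, which defines the trophectoderm, did not pass (-0.13 ± 0.15), and Eomes, Elf5, Hand1 and Tpbpa were undetected at both days. Of 11 endoderm markers 2 rose (18.2%, background 14.8%) and 1 fell, and without day 0 replicate 2 or day 2 replicate 3 only 1 rose, since Dab2 (0.50) lost its call. Amn, a membrane protein of the visceral endoderm, was at 8.35, 8.20 and 8.22 at day 2, against 6.49, 6.76 and 6.76 at day 0 (1.58 ± 0.16, limma adjusted p of 4.81e-05), while Gata4, Sox17, Foxa2, Afp and Ttr were undetected and Sox7 fell (-0.96 ± 0.18). Among 14 mesoderm and muscle markers 5 rose (35.7%, background 14.8%) and 2 fell (14.3%, background 7.6%), with a median of 0.49, or 0.23 with bounds. The rises were mainly contractile and globin genes. Acta1, skeletal muscle actin, was at 9.27, 9.09 and 9.31 at day 2, against 7.91, 8.31 and 8.53 at day 0 (0.97 ± 0.14), and Hba-a1, an alpha globin, was undetected at day 0 and at least 1.77-fold higher at day 2. Of 9 primed epiblast markers 1 rose (11.1%, background 14.8%) and 2 fell (22.2%, background 7.6%). The riser was Cldn6, an epithelial claudin, at 12.04, 11.94 and 11.89 at day 2, against 10.94, 10.94 and 11.04 at day 0 (0.98 ± 0.10). The falls were Lef1 (-1.0) and Sall2 (-0.57), the latter a call lost in 11 of 28 alternatives, and Otx2 did not pass (0.30 ± 0.15). Thy1 (1.04 ± 0.16) and Col5a1 (0.91 ± 0.13) rose among the 4 fibroblast markers tested (50%, background 14.8%). The summed level of that marker list moved with these genes as given above, and its part in other results was not tested. Of 25 imprinted genes 7 rose (28%, background 14.8%) and 0 fell, led by Usp29 (0.86 ± 0.21), Slc22a18 (0.82 ± 0.15) and the growth factor gene Igf2 (0.67 ± 0.13). With the mean of its detected probes Slc22a18 changed by 0.41 and was no longer called. The 7 rises were 4 after scaling to the 75th percentile and 3 with no scaling.

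Of 27 glycolysis and hypoxia-responsive genes 10 rose (37%) and 1 fell (3.7%), against a background of 14.8% and 7.6%. The median was 0.21, and relative to all genes it was 0.06 after scaling to the 75th percentile and 0.05 with no scaling. The members that rose included genes of glycolytic enzymes and HIF-responsive genes such as Egln3. Eno2, the neuronal enolase, was at 7.62, 7.37 and 7.30 at day 2, against 5.96, 5.92 and 6.42 at day 0 (1.33 ± 0.19, limma adjusted p of 0.000468). Day 0 replicates 1 and 2 did not detect Eno2 (lowest detected signals of 6.06 and 6.25), and over the 28 alternatives its rise was 0.53 to 1.64. Aldoc, the brain aldolase, was at 9.38, 9.69 and 9.56 at day 2, against 8.50, 8.56 and 8.83 at day 0 (0.92 ± 0.13). The lactate dehydrogenase gene Ldha (0.00 ± 0.12) and the glucose transporter gene Slc2a1 (0.05 ± 0.11) did not pass. Of 64 respiratory chain subunits 7 rose and 1 fell, which is 10.9% and 1.56%, both below the background of 14.8% and 7.6%. The rises included Cox6b2, Cox7a1, Cox4i2 (0.82), Ndufa11 (0.53) and Cox8c (0.48). Cox6b2, known from testis, averaged 11.06 ± 0.18 at day 2, against 10.01 ± 0.26 at day 0 (SD, n = 3 each), with no overlap (1.04 ± 0.16), and Cox7a1, the muscle form, was at 11.79, 11.59 and 11.52 at day 2, against 10.46, 10.86 and 10.84 at day 0 (0.91 ± 0.17). Leaving out day 0 replicate 1 or day 2 replicate 1 left 4 rises, and the median turned to -0.03 relative to all genes after scaling to the 75th percentile and to -0.04 with no scaling. Acss2, which makes acetyl-CoA from acetate, was at 9.35, 9.09 and 9.05 at day 2, against 7.91, 7.87 and 8.24 at day 0 (1.16 ± 0.13, limma adjusted p of 8.84e-05). Its list of cholesterol and fatty acid synthesis genes gave 5 rises of 23 (21.7%, background 14.8%) and 0 falls. Acss2 itself is among the 5, as is Mlycd, which removes malonyl-CoA. Leaving out day 0 replicate 1 left 3 rises, and leaving out day 0 replicate 2 left 2. Of 50 ribosomal protein genes 2 rose (4%) and 0 fell, below the background. Leaving out day 0 replicate 1, day 1 replicate 1 or any 1 of the 3 day 2 arrays left 1 rise, and 0 rose after scaling to the 75th percentile or with no scaling.

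Other called genes of heme and antioxidant metabolism moved opposite to Hmox1. Of 26 tested, 6 rose (23.1%, background 14.8%) and 1, Hmox1 itself, fell. Blvrb, the reductase that handles biliverdin, was at 12.35, 12.24 and 12.10 at day 2, against 10.51, 11.02 and 11.01 at day 0 (1.38 ± 0.14, limma adjusted p of 4.98e-05). Gpx2, a peroxide-removing enzyme, averaged 10.88 ± 0.16 at day 2, against 9.95 ± 0.11 at day 0 (SD, n = 3 each), with no overlap (0.93 ± 0.13), and Gstm1, a glutathione transferase, rose by 0.79 ± 0.13. The 6 rises were 3 without day 2 replicate 1, 3 after scaling to the 75th percentile and 3 with no scaling. Of 14 heat shock genes 2 rose (14.3%) and 1 fell (7.14%), near the background of 14.8% and 7.6%. Hspa1a, the inducible chaperone, was undetected at day 0 and at least 1.75-fold higher at day 2, and Hspb8 was at 11.43, 11.68 and 11.62 at day 2, against 10.41, 10.55 and 10.74 at day 0 (1.01 ± 0.12).

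Targets of ATF4, the factor that the integrated stress response uses to restore amino acid supply, gave more falls than rises. Of 29 genes of ATF4 and the unfolded protein response, 1 rose and 9 fell (31%, background 7.6%), with a median of -0.25. Between 7 and 10 fell in fits that left out any single array, and with no scaling 0 were called while the median relative to all genes was -0.33. Chac1, which degrades glutathione, was at 11.23, 11.17 and 11.04 at day 2, against 12.07, 11.91 and 11.84 at day 0 (-0.79 ± 0.12, limma adjusted p of 0.000516). Slc7a3, a transporter of cationic amino acids, was at 12.61, 12.48 and 12.60 at day 2, against 13.45, 13.34 and 13.42 at day 0 (-0.84 ± 0.13, limma adjusted p of 0.000578). Shmt2, the mitochondrial enzyme that splits serine, fell by 0.72, and Trib3, a pseudokinase in ATF4 feedback, fell by 0.46. Nupr1 was at 11.21, 11.32 and 10.92 at day 2, against 11.63, 12.15 and 12.04 at day 0 (-0.79 ± 0.23), and its call was lost without any 1 of 4 arrays, day 0 replicates 2 and 3 and day 2 replicates 1 and 3. Atf4 itself did not pass (-0.19 ± 0.18), nor did Ddit3 (-0.41 ± 0.26).

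The promoters of Chac1 and Nupr1 are shown for the element TGATGCAA, the composite site that ATF4 is known to bind with C/EBP factors, in capitals here as its reverse complement. They lie at chr2:119350992-119351291 on the plus strand and chr7:126625421-126625720 on the minus strand.
Chac1: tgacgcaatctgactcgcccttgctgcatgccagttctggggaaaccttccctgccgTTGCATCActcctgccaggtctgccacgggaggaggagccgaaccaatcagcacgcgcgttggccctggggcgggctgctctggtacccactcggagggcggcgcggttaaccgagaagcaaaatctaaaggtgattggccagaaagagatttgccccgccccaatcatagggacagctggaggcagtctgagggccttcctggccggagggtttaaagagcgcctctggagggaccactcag
Nupr1: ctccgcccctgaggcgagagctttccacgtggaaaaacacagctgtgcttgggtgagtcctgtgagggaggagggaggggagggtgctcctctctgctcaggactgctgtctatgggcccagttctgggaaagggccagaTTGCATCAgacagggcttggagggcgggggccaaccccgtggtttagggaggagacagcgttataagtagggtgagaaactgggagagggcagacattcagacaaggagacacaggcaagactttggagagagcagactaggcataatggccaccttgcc
The element begins at -193 in Chac1 and at -110 in Nupr1 relative to the start. Of the 27 genes of the list with a window 5 held it (18.5%), against 0.57% of the tested genes with a window and 0.929% of the whole promoter table. Of the 7 members that fell and had a window 4 held it. The list was drawn from known ATF4 targets, so the site is a feature of the list and no test was made.

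Transporters of amino acids, nucleotides and ions moved both ways, with 5 rises (22.7%) and 4 falls (18.2%) of 22. The background was 14.8% and 7.6%. Slc38a5, a glutamine transporter, was at 9.18, 9.0 and 9.04 at day 2, against 7.51, 7.43 and 7.52 at day 0 (1.59 ± 0.11, limma adjusted p of 8.58e-06). Slc1a1, a glutamate transporter, was at 8.25, 8.25 and 8.43 at day 2, against 7.34, 6.99 and 7.18 at day 0 (1.14 ± 0.14). Slc6a15, a neutral amino acid transporter, was at 7.53, 7.25 and 7.90 at day 2, against 8.96, 8.64 and 8.65 at day 0 (-1.19 ± 0.17), and Slc38a1 fell by 0.75. Without day 2 replicate 2 the count of rises was 3.

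Cell cycle genes gave few calls. Of 38 mitosis genes 0 rose and 3 fell (7.89%), and of 43 replication genes 1 rose (2.33%) and 3 fell (6.98%). Both shares of falls were near the background of 7.6%, and the shares of rises were below the background of 14.8%. The falls in mitosis became 1 without day 0 replicate 2, day 2 replicate 2 or day 2 replicate 3, while leaving out day 0 replicate 1 left 1 fall in replication and leaving out day 2 replicate 2 left 0. With scaling to the 75th percentile 12 of the replication genes were called lower. The clearest change was in Ccnd2, a D-type cyclin that drives entry into the cycle, at 8.4, 8.60 and 8.71 at day 2, against 9.88, 9.63 and 9.73 at day 0 (-1.18 ± 0.17, limma adjusted p of 0.000503). Cdkn1a, a CDK inhibitor often reported to rise with HDAC inhibitors, was at 10.68, 10.75 and 10.82 at day 2, against 10.32, 10.23 and 10.13 at day 0 (0.52 ± 0.11, limma adjusted p of 0.00466). Of the 15 genes reported to rise with such inhibitors 6 rose (40%, background 14.8%) and 1 fell, and with no scaling 0 were called either way. Txnip, which restrains glucose uptake, was at 13.09, 12.89 and 13.05 at day 2, against 12.21, 12.23 and 12.29 at day 0 (0.76 ± 0.11), whereas Gadd45g was at 9.27, 9.19 and 9.15 at day 2, against 10.20, 10.39 and 10.22 at day 0 and fell (-1.07 ± 0.12).

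Among 21 BCL2 family and caspase genes 5 rose (23.8%) and 2 fell (9.52%), against a background of 14.8% and 7.6%. The largest rises were in genes of BH3-only proteins, which switch on mitochondrial apoptosis. Bik was at 8.76, 8.52 and 8.45 at day 2, against 7.06, 7.58 and 7.60 at day 0 (1.17 ± 0.15, limma adjusted p of 0.000188), and Bmf was at 9.20, 9.09 and 8.84 at day 2, against 7.94, 7.84 and 7.68 at day 0 (1.22 ± 0.14, limma adjusted p of 0.000114). Bcl2l11, another BH3-only gene, did not pass (0.19 ± 0.14). Mcl1, which opposes apoptosis, rose by 0.54 ± 0.15, and leaving out replicate 2 of day 0 or replicate 3 of day 2 ended that call. The caspase genes Casp6 (0.92 ± 0.17) and Casp9 (0.72 ± 0.12) rose and Casp2 (-0.45 ± 0.11) fell. Bak1, a pore-forming member, was at 6.69, 6.42 and 6.56 at day 2, against 8.24, 7.43 and 7.0 at day 0 (-1.0 ± 0.25), a call lost without day 2 replicate 2. Of 23 p53 target genes 2 rose and 2 fell (8.7% each, against a background of 14.8% and 7.6%), with 1 to 3 rises and 1 to 2 falls in fits without any single array. The death receptor gene Fas was at 8.0, 7.91 and 7.69 at day 2, against 6.39, 6.02 and 6.42 at day 0 (1.59 ± 0.16, limma adjusted p of 5.24e-05). Day 0 replicate 2 did not detect Fas (lowest detected signal of 6.25). The other rise was that of Mdm2 (0.46), which keeps p53 low, and leaving out replicate 2 of day 0 or replicate 1 or 3 of day 2 ended its call. The falls were Sesn2 (-0.62) and Eda2r. No day 2 array detected Eda2r, which was at least 1.26-fold lower, and its call ended without any 1 of those 3 arrays.

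Actin and adhesion genes gave 14 rises (30.4%) and 3 falls (6.52%) of 46, against a background of 14.8% and 7.6%. There were 8 rises without day 2 replicate 2 and 5 with no scaling. The falls came to 1 on leaving out replicate 1 or 2 of day 0 or replicate 2 or 3 of day 2. Anxa2, a membrane-binding annexin, was at 12.96, 12.87 and 12.78 at day 2, against 11.95, 12.13 and 12.15 at day 0 (0.79 ± 0.10, limma adjusted p of 0.000241), and Tagln2, an actin-binding protein, was at 13.28, 13.31 and 13.06 at day 2, against 12.57, 12.46 and 12.19 at day 0 (0.81 ± 0.13). The unconventional myosin gene Myo10, which builds filopodia, went the other way, at 7.25, 7.23 and 7.39 at day 2, against 8.53, 8.36 and 8.36 at day 0 (-1.13 ± 0.11, limma adjusted p of 4.81e-05). Cdh1, the epithelial cadherin, did not pass (0.41 ± 0.19). Lysosome genes gave 9 rises (24.3%, background 14.8%) and 2 falls of 37, with 3 rises under no scaling. Cathepsin genes were on both sides, with Ctsh (1.82 ± 0.19), Ctsl (0.98 ± 0.19) and Ctsb (0.81 ± 0.15) higher and Ctsf (-0.76 ± 0.13) lower. Of 29 interferon and antigen presentation genes 9 rose (31%, background 14.8%) and 3 fell (10.3%, background 7.6%), with a median of 0.25, or 0.12 with bounds. Psmb9, a subunit of the immunoproteasome, was at 8.96, 8.96 and 8.89 at day 2, against 7.29, 7.78 and 7.61 at day 0 (1.38 ± 0.13, limma adjusted p of 4.01e-05), and H2-T23 (0.95 ± 0.18) and H2-D1 (0.70 ± 0.16), which present peptides, rose with it. The sensor gene Ddx58 (-0.90 ± 0.20) and Irf9 (-0.69 ± 0.16), which relays interferon signals, fell.

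The share of rises differed between promoter types, a split that was not tested. Of the 1361 tested genes with fewer than 10 CpG pairs in the promoter window, 21.2% rose and 7.57% fell, and of the 1798 with 30 or more, 11.5% rose and 7.84% fell. The median day 0 level was 7.48 in the CpG-poor class and 8.98 in the CpG-rich class, and the part of the level in the share of rises was not tested. Genes undetected at day 0 entered the test only through their signal on other days, so the share of rises among dim genes is partly set by the detection filter. The share of falls was 7.57% to 8.20% in all 4 classes.

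**Figure D5:**
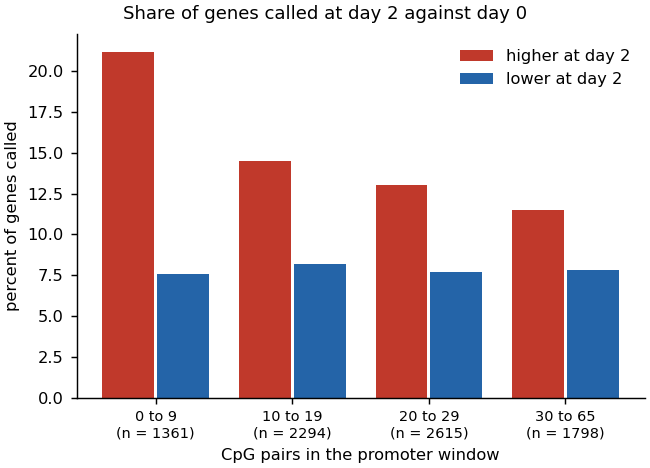
Percent of genes called higher (red) or lower (blue) at day 2 than at day 0, by number of CpG pairs in the 300-base promoter window, with the number of genes under each class. Red bars run from 21.2% in the CpG-poor class to 11.5% in the CpG-rich class, whose median day 0 level is also higher.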

How the data were processed

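The arrays measured total RNA of the 12 samples as biotinylated cRNA on Illumina bead arrays. The intensity values used here are the linear bead signals the authors deposited without normalization, each with a detection p-value that the authors deposited beside it, and GenomeStudio is named in the submitters' processing notes. Its version, settings and the treatment of background are not given in the sources used here. A second table of deposited intensity values, quantile normalized as its values show, served as an alternative. There were 0 columns of per-sample values left unused.

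From the deposited intensity the log2 values were computed by the neqc function (limma 3.58.1, R 4.3.3), with an offset of 16 and detection p-values standing in for control probes. Of 45281 probes, 17337 were detected (p under 0.01) on at least 3 of 12 arrays, and 14940 of these named 1 gene through the platform annotation, in which 34885 probes have 1 symbol, 18 have several and 10378 have none. The probe with the highest mean stood for each gene, which gave 9934 genes. Limma fitted 1 mean per day over the 12 arrays, and Benjamini-Hochberg adjusted p was taken at 0.05. The number of arrays limits the precision. For a gene undetected in 1 group, a bound against the detection limit is given as "at least N-fold".

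The members and the 40 gene lists were chosen with earlier results of these data known. Named genes were the 12 largest measured rises and falls, the 6 highest bounds each way, and in each list up to 5 called members with the largest change in each direction plus preset key members. The largest changes and the bounds were taken only from called genes whose day 2 and day 0 arrays did not overlap. Hdac1 and Hdac2 were named whatever their result, and clone names were left out of the largest changes. The fit was tested on simulated data. Promoter windows (250 bases before to 50 after the start) came from RefSeq for GRCm38.p6 and were found for 8068 of the genes, 2 of them by symbol. On both strands 11 motifs were searched: the TATA box TATAAA, the CCAAT box CCAAT, the GC box GGGCGG, the E-box CACGTG, the cyclic AMP element TGACGTCA, the ATF4 element TGATGCAA, the octamer ATTTGCAT, an E2F form GGCGGGAA, a REST part TTCAGCACC and a pair of forms of the serum response element, named only. The GC box and E2F form may overlap. Alternatives changed the background correction, scaling, probe filter, probe choice, arrays and replicate block.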

Additional observations from a re-analysis of the deposited data

How the results depend on the processing

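The count of changed genes (2228) and its split into 1473 rises and 755 falls depended most on scaling and on how many arrays entered. With no scaling between arrays 1023 genes were called, of which 24 were falls, and with scaling to the 75th percentile the falls numbered 1357. Leaving out any single array gave 1580 to 2520 changed genes, 1090 to 1612 rises and 474 to 908 falls. Leaving out all arrays of replicate number 1, 2 or 3 gave 851, 913 and 1772 changed genes, with 627, 722 and 1187 rises and 224, 191 and 585 falls. Fewer arrays enter those fits. The other background corrections, filters, probe rules, weights, cyclic loess, the deposited values and the 6 arrays alone kept all 3 counts within 1.5 times. The sizes of single genes moved more. Over the 28 alternatives the change was -2.53 to -1.14 for Hmox1, -1.69 to -0.73 for Sall3, 0.85 to 2.34 for Mlycd and 0.73 to 2.1 for Mfsd6. Egr1 stayed at 1.58 to 1.94, so the order of the largest changes depends on the processing. Same-numbered day 2 and day 0 arrays had deviations that correlated at 0.04, -0.03 and 0.25, against -0.28 to 0.27 for arrays of different number. With 3 arrays per day these values do not settle whether the numbers pair the samples. With the replicate block over 12 arrays 2896 genes were called, 1818 up and 1078 down, and over the 6 arrays 2096. Of 124 named rises 69 were called in all 28 alternatives, and of 84 named falls 15 were, while 69 of the falls were not called with no scaling. No named gene changed direction with a call.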
